A study of Mus musculus with 6 samples.

Results

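The respiratory chain and ATP synthase genes were followed in LSKs, the bone marrow (BM) cells that carry c-Kit and Sca1 but no lineage antigens and that include hematopoietic stem and progenitor cells. They are the protein-coding genes whose symbols begin with Nduf (assembly factors apart), Uqcr, Cox4 to Cox8, Atp5 or mt-, together with *Sdha*, *Sdhb*, *Sdhc* and *Sdhd*. These were 99 of the 54532 genes measured, 86 encoded in the nucleus and 13 in mitochondrial DNA. Of the 99, 94 had a mean of at least 1 FPKM, a read count corrected for gene length and sequencing depth, over the 6 libraries and were tested. RNA-seq was done on 3 libraries from Myh9fl/fl;Mx1-cre mice (*Myh9*-deficient LSKs, cKO) and 3 from littermate Myh9fl/fl;no cre mice (control LSKs, CTRL), all on a C57BL/6 background. Both groups had been injected with poly I:C at 5 mg/kg, in 2 doses by the sample descriptions, and LSKs were sorted 4 days after the first dose, 100000 cells for each library. Mice were genotyped at 4 to 5 weeks of age and then injected. *Mx1-cre* is driven by an interferon-responsive promoter that is not limited to hematopoietic cells, control mice received poly I:C but carried no Cre, and how many mice gave each set of cells is not stated. All p-values therefore measure the spread between these libraries.

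Oxidative phosphorylation passes electrons from NADH and succinate through complexes I, II, III and IV of the inner mitochondrial membrane to oxygen, and complex V, the ATP synthase, uses the proton gradient that complexes I, III and IV build. Complex II is made of nuclear-encoded subunits alone, whereas the other complexes combine nuclear subunits with a few made inside the mitochondrion. Hematopoietic stem cells at rest are known for relying little on this pathway, and progenitors that leave rest for relying on it more.

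The 6 libraries held 17571544 to 19894562 reads on genes. *Myh9*, the targeted gene, was at 23.0, 22.6 and 22.0 FPKM in the CTRL libraries against 18.4, 19.96 and 17.7 FPKM in the cKO libraries, lower in every deficient library but far from 0 (log2 difference -0.26, SE 0.0487, limma adjusted p = 0.00642). LSK markers were present and moved with genotype, 4 of 9 tested being higher and 1 lower in *Myh9*-deficient LSKs, with summed levels of 222 to 226 FPKM over the list in CTRL and 233 to 243 FPKM in cKO libraries. Markers of other cells moved as well. All 12 tested erythroid markers were higher in *Myh9*-deficient LSKs (summed 606 to 612 against 1056 to 1098 FPKM), with the late markers *Alas2* and *Slc4a1* under 1 FPKM in both groups, and so were the 4 tested megakaryocyte markers (64.8 to 69.4 against 138 to 144 FPKM; *Gp1bb* was at 0). Of 10 neutrophil and monocyte markers, 9 were lower (10813 to 10844 against 5999 to 6106 FPKM), and 5 of 6 mast cell and basophil markers were higher (125 to 137 against 187 to 197 FPKM). B and plasma cell markers had 3 higher and 2 lower of 6 tested (132 to 137 against 154 to 159 FPKM), with *Pax5* at 0 in control LSKs. T and NK cell markers had 3 higher and 1 lower of 4 tested (366 to 378 against 338 to 342 FPKM), with *Cd3e* at 0 in control LSKs, and the single tested stromal or endothelial marker was lower. The part of these shifts in the results on respiratory chain genes was not tested, and in such bulk samples fewer cells of a type and less RNA per cell cannot be told apart.

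Some of these genes have near-identical pseudogenes elsewhere in the genome, so that a read can come from either place. Stretches of 120 bases are shown for *Ndufa12* and *Ndufs5*, the complex I members with the largest rises, beside their pseudogenes *Gm15920* and *BC002163*, to show how little separates each pair. Capitals mark the bases that differ. The *Ndufa12* stretch is joined from 3 exon segments on the plus strand of chromosome 10 (94199119 to 94199130, 94199950 to 94200032 and 94203288 to 94203312), *Gm15920* lies at chr5:130188433-130188552 on the plus strand, *Ndufs5* at chr4:123715928-123716047 on the minus strand and *BC002163* at chr16:42955663-42955782 on the plus strand, all in GRCm38.

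Ndufa12: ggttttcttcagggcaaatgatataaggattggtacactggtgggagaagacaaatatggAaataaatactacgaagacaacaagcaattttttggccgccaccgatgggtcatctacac
Gm15920: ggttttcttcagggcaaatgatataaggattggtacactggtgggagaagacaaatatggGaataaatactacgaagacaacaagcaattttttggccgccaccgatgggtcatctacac
Ndufs5: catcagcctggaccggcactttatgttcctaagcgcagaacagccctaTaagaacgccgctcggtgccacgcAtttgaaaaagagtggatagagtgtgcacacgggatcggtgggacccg
BC002163: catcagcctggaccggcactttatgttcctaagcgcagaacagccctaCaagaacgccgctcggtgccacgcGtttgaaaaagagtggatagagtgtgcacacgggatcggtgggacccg

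Over the whole of each pseudogene, 400 of the 402 bases of *Gm15920* and 317 of the 319 bases of *BC002163* were identical to the parent transcript. Within the coding sequence, 2 of 399 aligned bases differed for *Ndufa12* and 2 of 318 for *Ndufs5*. Within these stretches, placing a read at gene or pseudogene turns on a few bases.

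Nuclear respiratory chain genes are also known for shared promoter motifs, bound by NRF1, by ETS factors such as GABPA and by YY1. RefSeq promoters (GRCm38.p6, 250 bases before to 50 after the gene start) were found for 67 of the 86 nuclear genes, 72 promoters in all, and searched on both strands for GCGCA, any base, then GCGC (NRF1), for CCGGAAG (ETS) and for AAGATGGC (YY1). A match to one motif can share its end bases with a match to another. At least 1 motif was present in 51.4% of these promoters against 14.7% of all 32851 promoters. The NRF1 motif was in 25% against 4.60%, the ETS motif in 22.2% against 8.86%, and the YY1 motif in 12.5% against 2.75%. The 250 bases before the start are shown for 3 members that rose, have a single promoter and no pseudogene and hold an NRF1 or ETS motif there. They had the largest such rise in complexes I, II and IV (no member of complexes III and V met these terms). Motifs are in capitals. *Ndufb6* lies at chr4:40279422-40279671, *Sdhd* at chr9:50603850-50604099 and *Cox6a1* at chr5:115348959-115349208, all on the minus strand.

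Ndufb6: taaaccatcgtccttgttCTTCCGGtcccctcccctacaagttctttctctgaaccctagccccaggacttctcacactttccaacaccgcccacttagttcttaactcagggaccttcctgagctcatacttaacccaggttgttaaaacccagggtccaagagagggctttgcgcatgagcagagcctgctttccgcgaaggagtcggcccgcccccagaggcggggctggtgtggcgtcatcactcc
Sdhd: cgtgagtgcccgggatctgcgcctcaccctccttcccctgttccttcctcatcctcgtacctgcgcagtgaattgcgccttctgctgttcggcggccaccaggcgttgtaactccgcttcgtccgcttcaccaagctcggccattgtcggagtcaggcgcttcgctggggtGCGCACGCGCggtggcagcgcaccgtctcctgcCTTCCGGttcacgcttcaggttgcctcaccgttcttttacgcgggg
Cox6a1: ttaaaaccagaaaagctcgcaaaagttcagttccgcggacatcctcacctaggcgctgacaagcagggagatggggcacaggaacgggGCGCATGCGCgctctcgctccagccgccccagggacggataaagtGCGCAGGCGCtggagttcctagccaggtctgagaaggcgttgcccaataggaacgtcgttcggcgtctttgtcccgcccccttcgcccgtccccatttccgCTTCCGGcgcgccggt

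The *Ndufb6* promoter held 1 ETS motif, the *Sdhd* promoter 1 NRF1 and 1 ETS motif, and the *Cox6a1* promoter 2 NRF1 motifs and 1 ETS motif. At least 1 motif was present in 51.0% of the 51 promoters of nuclear genes that rose and in 57.9% of the 19 promoters of tested nuclear genes that did not.

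Comparing *Myh9*-deficient with control LSKs, most nuclear-encoded subunit genes were a little higher as deposited, fewer of them once the trend of all genes with length was removed. Most mitochondrially encoded ones did not pass as deposited, but 8 of 13 fell with that trend removed. Of the 94 genes tested, 57 rose and 4 fell (limma, adjusted p under 0.05 over 11552 genes), while 19.9% of all tested genes rose and 20.6% fell. The 57 comprised 56 nuclear genes and *mt-Nd1*, and the 4 were *Sdha*, *Cox7a2l*, *mt-Nd5* and *mt-Nd6*. Among the 81 tested nuclear genes, 69.1% rose and 2.47% fell, with a median log2 fold change of 0.18 against -0.0096 over all tested genes. With each library's trend with gene length removed, 34 of the 81 (42.0%) rose and 2 fell, with a median of 0.10, against 19.5% of all genes rising and 18.2% falling in that fit. The changes were small: the mean FPKM of the 57 was raised by 6.94% to 107%, with a median of 16.8%. Only *Ndufa12* exceeded 2-fold with an unadjusted p under 0.05, the study's rule, which 2.13% of all tested genes met. All cKO values lay above all CTRL values for 61 nuclear genes and below them for 2, against 25.5% and 28.5% of all tested genes, and for 1 and 5 of the 13 mitochondrially encoded genes. With 3 libraries against 3, an exact permutation test of a single value cannot go below p = 0.1, and no such test is given.

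**Figure D1:**
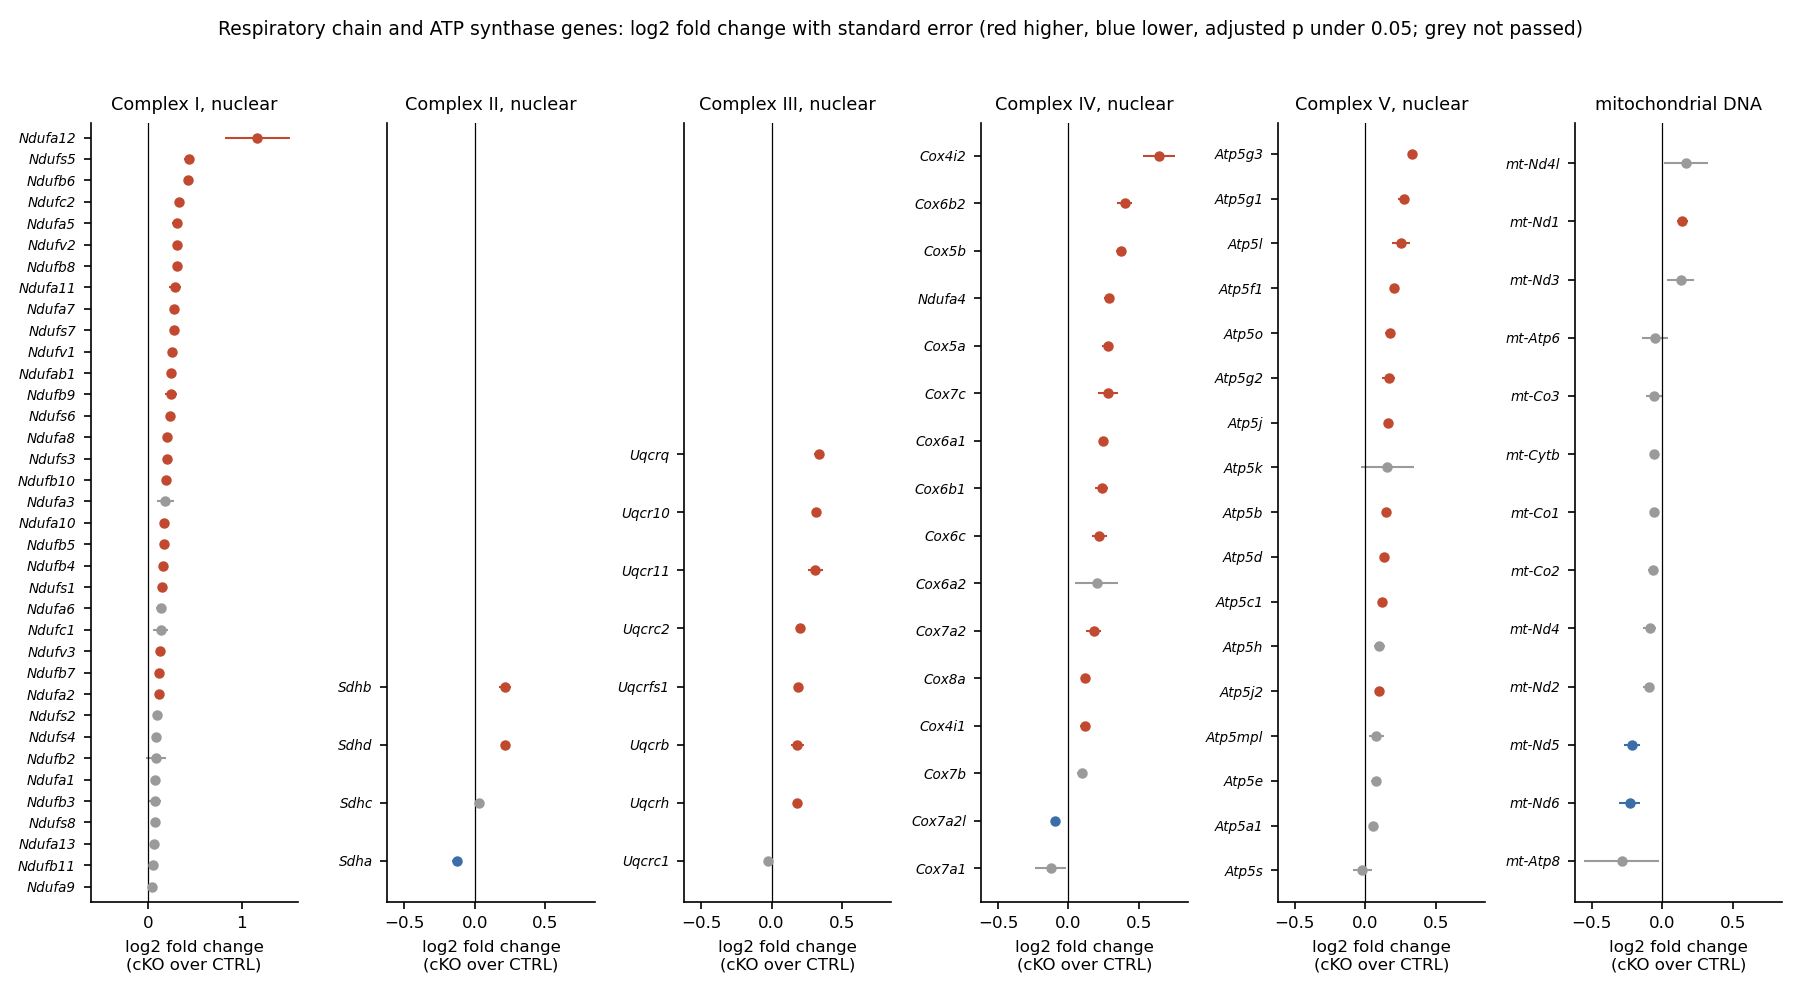
Log2 fold change (cKO over CTRL, on the log2(FPKM + 1) scale) of each of the 94 tested genes with its standard error from limma, in a panel for the nuclear genes of each complex and one for mitochondrial DNA (3 libraries a group; the complex I panel has a wider horizontal axis). Red points mark the 57 genes that rose, blue points the 4 that fell and grey points the 33 that did not pass, and all 36 nuclear complex I genes lie to the right of 0.

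The summed level of the tested nuclear genes was 10209, 10152 and 10578 FPKM in the CTRL libraries against 11860, 11524 and 11732 FPKM in the cKO libraries. That of the 13 mitochondrially encoded genes was 13827, 13865 and 13406 FPKM in the CTRL libraries against 13427, 12873 and 13667 FPKM in the cKO libraries. The groups did not overlap for the nuclear sum and overlapped for the mitochondrial one. Nuclear genes thus made up 42.5%, 42.3% and 44.1% of the FPKM of both sets together in the CTRL libraries against 46.9%, 47.2% and 46.2% in the cKO libraries, again without overlap. The mitochondrial sum leaves out reads placed at the pseudogene copies described below, so these shares depend on how reads that match several places were treated. These sums are dominated by the most abundant genes. The mean over members of log2(FPKM + 1), which weights genes equally, separated the groups for each nuclear complex. For the mitochondrially encoded genes cKO libraries were lower, but narrowly: the closest libraries were at -0.012 (CTRL 3) and -0.027 (cKO 3) from the CTRL mean. In that mean *mt-Atp8*, with 4 to 15 reads a library, weighs as much as any other gene, so the separation is not firm.

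**Figure D2:**
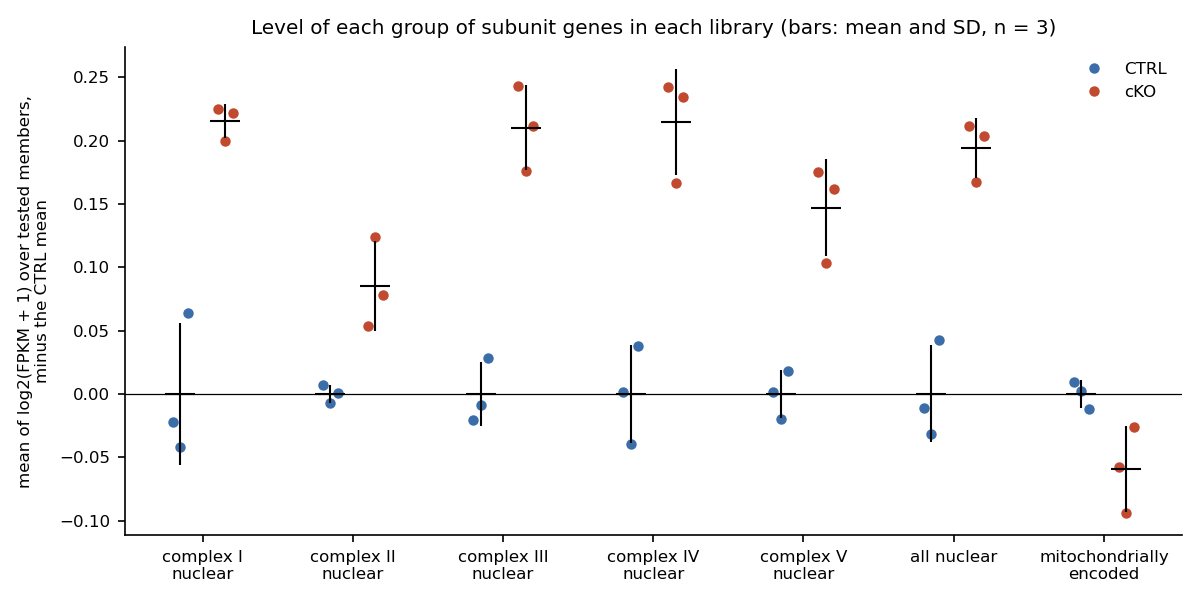
Mean of log2(FPKM + 1) over the tested genes of each group in each of the 6 libraries, minus the mean of the 3 CTRL libraries, with bars for mean and SD (n = 3). In each group of nuclear genes the 3 cKO libraries lie above the 3 CTRL libraries, between 0.17 and 0.21 above the CTRL mean over all nuclear genes, while the cKO libraries of the mitochondrially encoded genes lie 0.027 to 0.094 below it.

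Complex I, the NADH dehydrogenase that takes up electrons from NADH, had 24 of 36 nuclear genes higher, none lower and a median difference of 0.18 on the log2 scale. Of its 7 core subunit genes, among them the carriers of the flavin and the iron-sulfur clusters, 5 rose, with a median of 0.20. Of the 29 accessory subunit genes, which surround the core, 19 rose, with a median of 0.17. *Ndufa12*, an accessory subunit, was at 22.0, 24.4 and 59.1 FPKM in the CTRL libraries against 67.8, 71.2 and 79.4 FPKM in the cKO libraries (log2 difference 1.17, SE 0.345, limma adjusted p = 0.034). The groups did not overlap, yet control library 3 lay closer to the deficient libraries than to the other controls. Without control library 3 the log2 fold change was 1.61 (adjusted p = 2.1e-04), and without any one of the other 5 libraries it was between 0.91 and 1.22 with an adjusted p of 0.0738 to 0.101. *Ndufs5*, an accessory subunit of the intermembrane space side, was at 70.7, 63.3 and 71.6 FPKM in the CTRL libraries against 97.3, 90.6 and 91.3 FPKM in the cKO libraries (log2 difference 0.44, SE 0.0538, adjusted p = 0.00118), with no overlap. With the reads of their pseudogenes added, as described below, the log2 differences were 0.52 for *Ndufa12* and 0.18 for *Ndufs5*. At the other end, *Ndufa9* was at 59.98 ± 0.569 FPKM in CTRL and 61.7 ± 1.91 FPKM in cKO (SD, n = 3; log2 difference 0.038, adjusted p = 0.352), and *Ndufb11*, which is X-linked, at 191 ± 5.18 and 198 ± 5.27 FPKM (log2 difference 0.049, adjusted p = 0.259). The groups overlapped for both genes. *Ndufb6*, whose promoter is shown above, rose with a log2 fold change of 0.43, and 39.0% of its exon bases overlap *Smim27* on the opposite strand. Whether strand was used in counting is not given in the sources used here, and without it reads of the pair cannot be told apart.

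Complex II, succinate dehydrogenase, has 4 subunits and showed both directions. *Sdhb*, the iron-sulfur subunit, was at 74.7, 70.0 and 68.8 FPKM in the CTRL libraries against 79.4, 85.7 and 83.5 FPKM in the cKO libraries (log2 difference 0.22, SE 0.0429, limma adjusted p = 0.00786). *Sdhd*, a membrane anchor, was at 187, 188 and 186 FPKM in the CTRL libraries against 214, 221 and 216 FPKM in the cKO libraries (log2 difference 0.22, SE 0.0224, adjusted p = 5.8e-04). Neither gene had overlapping groups, and both kept their call without any one library. *Sdha*, the flavoprotein that holds the active site, went the other way, at 80.8, 84.0 and 87.3 FPKM in the CTRL libraries against 75.3, 79.3 and 76.2 FPKM in the cKO libraries (log2 difference -0.12, SE 0.0369, adjusted p = 0.0346). Its groups did not overlap, but its call was lost without control library 2 or 3 or deficient library 1 or 3, with an adjusted p of 0.0872 to 0.101. *Sdhc*, the other anchor, was at 45.9 ± 0.553 and 47.0 ± 1.14 FPKM (SD, n = 3; log2 difference 0.033, adjusted p = 0.398) and its groups overlapped.

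Complex III, which passes electrons from ubiquinol to cytochrome c, had 7 of 8 nuclear genes higher, with a median log2 fold change of 0.19. With the length trend removed 3 of the 8 were higher, with a median of 0.11. *Uqcrq*, a small subunit, was at 95.6, 99.0 and 104 FPKM in the CTRL libraries against 128, 122 and 128 FPKM in the cKO libraries (log2 difference 0.34, SE 0.0381, limma adjusted p = 8.2e-04). *Uqcr10*, another small subunit, was at 280.2, 277 and 281 FPKM in the CTRL libraries against 356, 347 and 339.7 FPKM in the cKO libraries (log2 difference 0.31, SE 0.0251, adjusted p = 2.0e-04). Both genes rose well beyond the spread between libraries, with no overlap. With the length trend removed the log2 differences were 0.27 for *Uqcrq* and 0.13 for *Uqcr10* (limma adjusted p = 0.00182 and 0.00498). The smallest differences were those of *Uqcrh*, the hinge protein, which was at 159 ± 1.51 FPKM in CTRL and rose to 180.2 ± 5.16 FPKM in cKO (log2 difference 0.18, adjusted p = 0.00307), and of *Uqcrc1*, a core protein, at 96.05 ± 0.543 and 94.4 ± 2.38 FPKM (SD, n = 3; log2 difference -0.025, adjusted p = 0.49), whose groups overlapped.

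Complex IV, cytochrome c oxidase, had 12 of 16 tested nuclear genes higher and 1 lower, and the median difference was 0.23 on the log2 scale. With the length trend removed 6 of the 16 were higher and 1 lower, with a median of 0.078. *Ndufa4*, named for complex I but known as a complex IV subunit, is counted here. With *Ndufa4* and the untested *Ndufa4l2* counted with complex I instead, complex I had 25 of 37 higher and complex IV 11 of 15. Several subunits exist as tissue isoforms. *Cox4i1*, the common form of subunit 4, was at 473, 473 and 502 FPKM in the CTRL libraries against 527, 514 and 526 FPKM in the cKO libraries (log2 difference 0.12, SE 0.0307, limma adjusted p = 0.0242). *Cox4i2*, the oxygen-regulated form, was far lower in level, at 2.999, 3.53 and 3.70 FPKM in the CTRL libraries against 5.96, 6.89 and 4.91 FPKM in the cKO libraries, and had the largest rise of the complex (log2 difference 0.64, SE 0.116, adjusted p = 0.00542). Neither pair of groups overlapped.

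Of the other complex IV isoform pairs, the common form was always the more abundant one. *Cox6a1*, the liver-type form of subunit 6a, was at 637 ± 13.1 FPKM in CTRL and rose to 755 ± 24.1 FPKM in cKO (log2 difference 0.24, limma adjusted p = 0.00133), while *Cox6a2*, the heart and muscle form, was at 7.20 ± 1.02 and 8.48 ± 1.81 FPKM (adjusted p = 0.346). *Cox6b1*, the common form of subunit 6b, was at 310.0 ± 11.8 FPKM in CTRL and rose to 365 ± 19.4 FPKM in cKO (log2 difference 0.23, adjusted p = 0.00784). *Cox6b2*, described as a testis form, was clearly present, at 50.1, 45.6 and 52.2 FPKM in the CTRL libraries against 65.4, 63.1 and 67.3 FPKM in the cKO libraries (log2 difference 0.40, SE 0.053, adjusted p = 0.00163), with no overlap. *Cox7a2*, the common form of subunit 7a, was at 123 ± 6.28 FPKM in CTRL and rose to 139 ± 7.54 FPKM in cKO (log2 difference 0.18, adjusted p = 0.0326), and *Cox7a1*, the muscle form, was at 1.51 ± 0.139 and 1.31 ± 0.291 FPKM (adjusted p = 0.391). *Cox8a*, the common form of subunit 8, was at 704 ± 28.6 FPKM in CTRL and rose to 764 ± 12.3 FPKM in cKO (log2 difference 0.12, adjusted p = 0.0292), while *Cox8b* and *Cox8c* were listed at 0 in all 6 libraries. *Cox7a2l*, a supercomplex assembly factor related to subunit 7a, was the exception, at 257, 258 and 254 FPKM in the CTRL libraries against 241, 234 and 244 FPKM in the cKO libraries (log2 difference -0.096, SE 0.0242, adjusted p = 0.0195). All deficient values lay below all control values. When 1 library was left out, the calls of *Cox4i1* and *Cox8a* were kept only without control library 3 or deficient library 2, that of *Cox7a2* only without control library 3 or deficient library 1, and that of *Cox7a2l* was lost without control library 1 or 2, with an adjusted p of up to 0.0855, 0.098, 0.0856 and 0.0668 in turn.

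Complex V, the ATP synthase, had 11 of 17 tested nuclear genes higher and none lower, and the median difference was 0.15 on the log2 scale. Its c ring, which turns in the membrane, is built from 1 protein encoded by *Atp5g1*, *Atp5g2* and *Atp5g3*, and all of these rose. *Atp5g3* was at 175, 168 and 174 FPKM in the CTRL libraries against 222, 212 and 218 FPKM in the cKO libraries (log2 difference 0.33, SE 0.0281, limma adjusted p = 2.5e-04). *Atp5g1* was at 39.8, 42.4 and 42.8 FPKM in the CTRL libraries against 51.1, 51.3 and 49.2 FPKM in the cKO libraries (log2 difference 0.27, SE 0.037, adjusted p = 0.00178). *Atp5g2*, the most abundant of these, was at 241, 235 and 247 FPKM in the CTRL libraries against 276, 253 and 281 FPKM in the cKO libraries (log2 difference 0.16, SE 0.0444, adjusted p = 0.0252). None of the groups overlapped, but the call of *Atp5g2* was kept only without control library 3 or deficient library 2, with an adjusted p of up to 0.0801 otherwise. *Atp5a1*, the catalytic head's alpha subunit, was at 385 ± 7.70 and 399.7 ± 5.44 FPKM (SD, n = 3; log2 difference 0.054, adjusted p = 0.128), and *Atp5s*, a coupling factor that is no structural subunit, at 7.07 ± 0.667 and 6.94 ± 0.169 FPKM (log2 difference -0.021, adjusted p = 0.824). Both had overlapping groups. In complexes I, III and V no tested nuclear gene fell, and 0 did so at an unadjusted p under 0.05 in limma or with voom on recovered reads. With the length trend removed, however, *Ndufa1*, a small complex I subunit singled out after its values were seen, was lower (log2 difference -0.13, adjusted p = 0.0184), where it was at 0.072 (adjusted p = 0.209) without the removal. Without *Atp5s* and *Cox7a2l*, 56 of 79 tested nuclear genes rose and 1 fell. The genes too low to test were *Cox7b2*, *Cox8b*, *Cox8c*, *Ndufa4l2* and a second entry for *Atp5o* (ENSMUSG00000116933), the last listed at 0 throughout.

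Mitochondrial DNA encodes 13 subunits: 7 of complex I, 1 of complex III, 3 of complex IV and 2 of complex V. Of these, 1 rose and 2 fell, and their median log2 fold change was -0.061. With the length trend removed 0 rose and 8 fell (18.2% of all genes fell in that fit), with a median of -0.20. *mt-Nd1* was at 2382, 2378 and 2272 FPKM in the CTRL libraries against 2634, 2463 and 2673 FPKM in the cKO libraries (log2 difference 0.14, SE 0.0381, limma adjusted p = 0.0238). *mt-Nd5* was at 701, 701 and 631 FPKM in the CTRL libraries against 597, 545 and 606 FPKM in the cKO libraries (log2 difference -0.22, SE 0.0571, adjusted p = 0.0229). *mt-Nd6*, the only one on the light strand, was at 525, 539 and 514 FPKM in the CTRL libraries against 475, 395 and 480.3 FPKM in the cKO libraries (log2 difference -0.23, SE 0.0744, adjusted p = 0.0464). None of these 3 had overlapping groups. When 1 library was left out, the call of *mt-Nd1* was kept only without deficient library 2, that of *mt-Nd6* only without deficient library 2 or 3, and that of *mt-Nd5* was lost without control library 1 or 2, with an adjusted p of up to 0.0775, 0.122 and 0.0762 in turn.

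The other 10 mitochondrially encoded genes did not pass as deposited. *mt-Co1*, the catalytic subunit of complex IV and the most abundant of all members, was at 5353, 5322 and 5229.6 FPKM in the CTRL libraries against 5035, 5032 and 5176 FPKM in the cKO libraries (log2 difference -0.061, limma adjusted p = 0.0788). *mt-Cytb*, the cytochrome b of complex III, was at 2925 ± 37.8 and 2805 ± 78.7 FPKM (SD, n = 3; adjusted p = 0.127), and *mt-Nd2* at 1019 ± 24.7 and 954 ± 45.2 FPKM (adjusted p = 0.0942). For these 3 genes all deficient values lay below all control values. *mt-Nd4* was at 674 ± 22.3 and 634 ± 33.4 FPKM (adjusted p = 0.157), *mt-Co2* at 119 ± 3.84 and 113 ± 3.86 FPKM (adjusted p = 0.205), *mt-Co3* at 47.4 ± 2.63 and 45.6 ± 3.24 FPKM (adjusted p = 0.494) and *mt-Atp6* at 36.6 ± 3.32 and 35.4 ± 3.79 FPKM (adjusted p = 0.708). *mt-Nd3* was at 15.5 ± 1.14 and 17.2 ± 2.17 FPKM (adjusted p = 0.309), *mt-Nd4l* at 10.4 ± 2.60 and 11.7 ± 1.25 FPKM (adjusted p = 0.438) and *mt-Atp8* at 2.68 ± 1.01 and 2.03 ± 0.861 FPKM (adjusted p = 0.431). The groups of these 7 overlapped. With the length trend removed, *mt-Co1*, *mt-Cytb*, *mt-Nd2*, *mt-Nd4*, *mt-Co2* and *mt-Co3* passed as lower (limma adjusted p of 0.00132 to 0.0327). The ribosomal RNA gene *mt-Rnr1*, transcribed from the same DNA and looked at after the values were seen, was at 182, 184 and 189.8 FPKM in the CTRL libraries against 262, 241 and 272 FPKM in the cKO libraries (log2 difference 0.47, SE 0.0469, adjusted p = 4.7e-04), whereas *mt-Rnr2* overlapped between groups (log2 difference 0.067, adjusted p = 0.276).

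**Figure D3:**
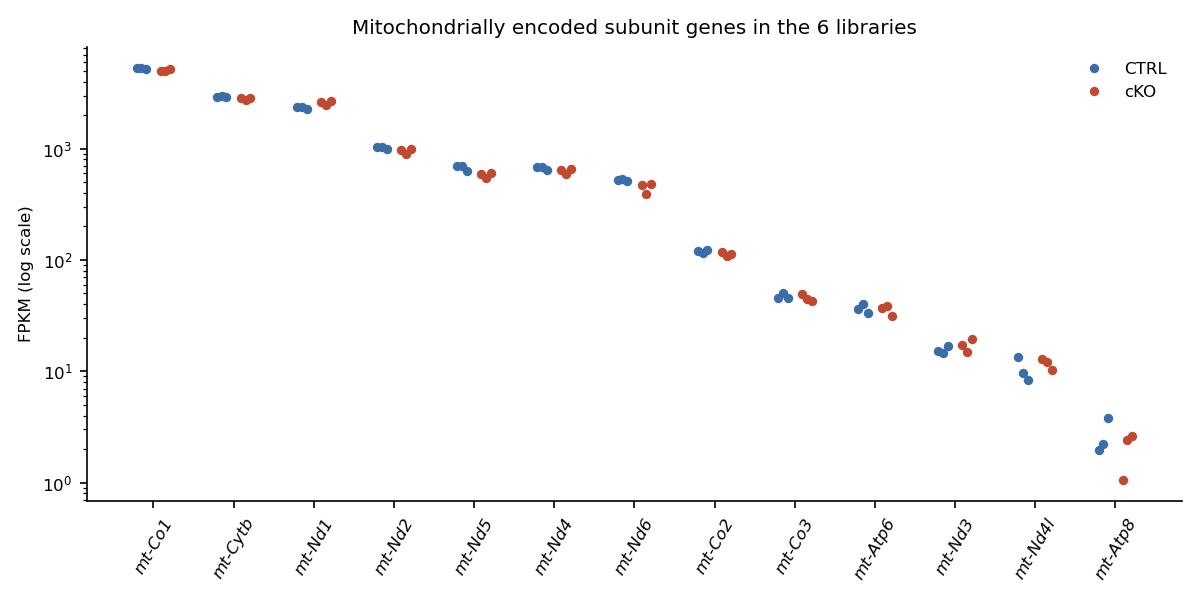
FPKM (log scale) of the 13 mitochondrially encoded subunit genes in the 3 CTRL and 3 cKO libraries, each point 1 library. Levels run from 5032 FPKM or more for mt-Co1 down to between 1.05 and 3.83 FPKM for mt-Atp8, a far wider range than the distance between the groups for any gene.

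The levels of the mitochondrially encoded genes also depended on where reads were placed. A block of chromosome 1 (24611535 to 24616197, GRCm38) holds unprocessed pseudogenes of 7 of them. There, *Gm28661* was identical to 681 bases of *mt-Co2*, *Gm28437* to 783 bases of *mt-Co3* and *Gm10925* to 678 bases of *mt-Atp6*, nearly the whole of each gene. Of the reads on gene and copies together, 54.1% to 58.4% lay at *mt-Co2*, 57.7% to 61.5% at *mt-Co3* and 38.7% to 45.6% at *mt-Atp6*. Adding the reads of the copies left the count of mitochondrially encoded genes at 1 higher and 2 lower. Comparison of levels between these genes, and of their sum with that of the nuclear genes, is limited by the identical copies. How reads that match several places were treated is not given in the sources used here.

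Reads were divided differently in the 2 groups between *Ndufa12* or *Ndufs5* and the pseudogenes whose sequences are given above. *Gm15920*, the *Ndufa12* copy, was at 155, 151 and 124 FPKM in the CTRL libraries against 112, 126 and 105 FPKM in the cKO libraries (log2 difference -0.32, SE 0.102, limma adjusted p = 0.0422), with overlapping groups. The share of reads on the pair that lay at *Ndufa12* was 35.6%, 38.6% and 65.1% in the CTRL libraries against 70.3%, 68.7% and 74.8% in the cKO libraries. Gene and copy together gave 96.8, 99.0 and 143 RPM (reads scaled to library size) in the CTRL libraries against 151, 163 and 167 RPM in the cKO libraries, a log2 difference of 0.52 (adjusted p = 0.0266) where the gene alone gave 1.17. *BC002163*, the *Ndufs5* copy, was at 97.4, 104 and 109 FPKM in the CTRL libraries against 72.1, 75.1 and 76.1 FPKM in the cKO libraries (log2 difference -0.46, SE 0.0445, adjusted p = 4.1e-04). The share of reads at *Ndufs5* rose from 66.2%, 62.2% and 64.0% to 78.4%, 76.5% and 76.4%, and with the copy added the log2 fold change was 0.18 (adjusted p = 0.0132) in place of 0.44. A pseudogene copy was found for 31 of the 99 genes. Among the 59 tested nuclear genes without one, 40 rose, and among the 22 with one, 16 rose. With the reads of copies added, 57 nuclear genes rose and 2 fell. Among the 62 that share under 5% of their exon bases with another gene, 42 rose and 2 fell.

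**Figure D4:**
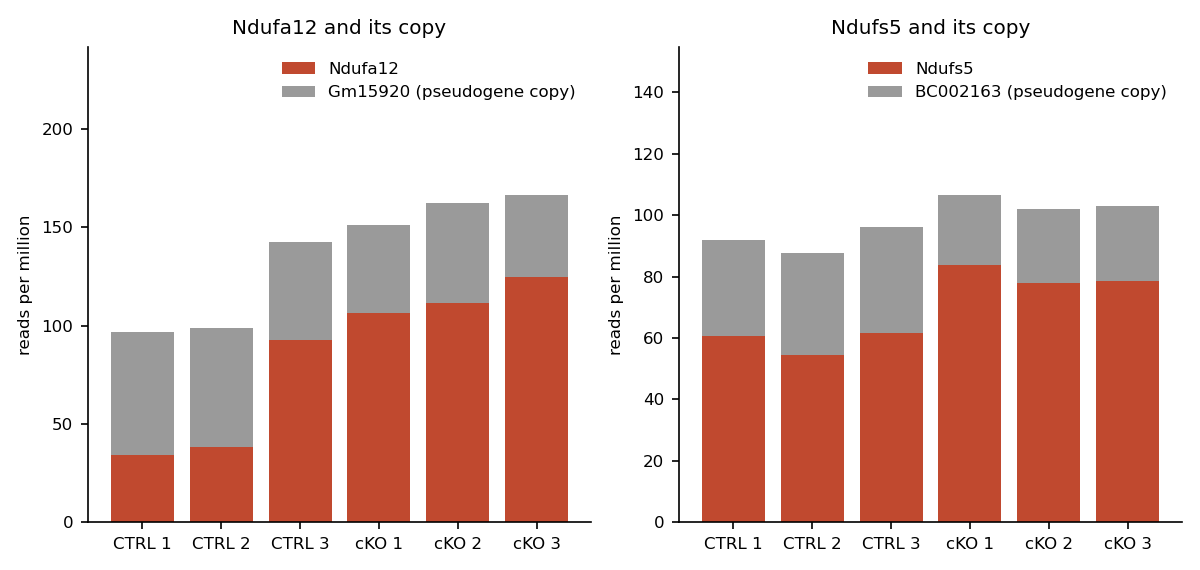
RPM (reads scaled to the library size implied by the FPKM values) at Ndufa12 and Ndufs5 (red) and at their pseudogene copies (grey), stacked for each of the 6 libraries. The red part is larger and the grey part smaller in the cKO libraries than in CTRL 1 and 2 for both pairs, and CTRL 3 has a red part of 65.1% for Ndufa12.

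Subunit genes are short, with a median gene length of 1587 bases among the tested nuclear members against 4227 among other tested protein-coding genes, and short genes as a class were higher in *Myh9*-deficient LSKs. For other protein-coding genes the median log2 fold change ran from 0.078 in the quintile of shortest genes to -0.088 in that of the longest. Within the interquartile range of the members' lengths, 963 to 2521 bases, 28 of 41 members rose and 1 fell (68.3% and 2.44%), with a median log2 fold change of 0.18. Of 1942 other protein-coding genes of these lengths, 33.0% rose and 15.9% fell, with a median of 0.073. By the same quintiles from short to long, the members' medians were 0.18 (59 genes), 0.15 (10 genes), 0.15 (7 genes), 0.21 (4 genes) and 0.14 (1 gene). Once each library's trend with length had been removed, 34 nuclear members rose (42.0%, against 19.5% of all genes in that fit) and *Cox7a2l* and *Ndufa1* fell, with a median log2 fold change of 0.10, and 0 mitochondrially encoded genes rose (0 at an unadjusted p under 0.05 in limma, 1 with voom and no removal of the trend) while 8 of 13 fell (18.2% of all genes), with a median of -0.20. Counts of nuclear genes that rose were then 16 for complex I, 2 for complex II, 3 for complex III, 6 for complex IV and 7 for complex V. Over all tested nuclear genes of each complex the median log2 fold changes were 0.14, 0.073, 0.11, 0.078 and 0.085 in turn. Of the genes named above, *Uqcrh*, *Cox4i1*, *Cox6a1*, *Cox6b1*, *Cox7a2*, *Cox8a*, *Atp5g2*, *Sdha* and *mt-Nd1* no longer passed. The difference of *Cox8a* turned to -0.068 (adjusted p = 0.103). Besides *Ndufa1*, those that newly passed as lower were *mt-Co1*, *mt-Cytb*, *mt-Nd2*, *mt-Nd4*, *mt-Co2* and *mt-Co3*. In all, 15 of the 94 members changed sign, among them *Ndufa1* and the previously higher *Ndufa2* (-0.068, adjusted p = 0.252). The cause of the trend with length was not tested.

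**Figure D5:**
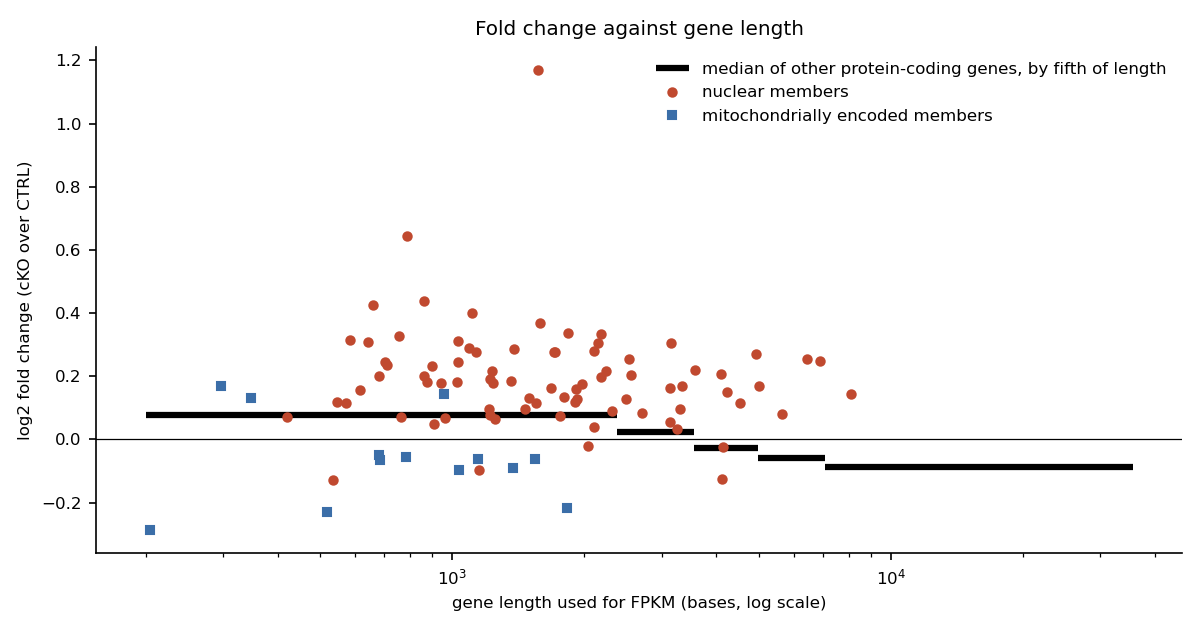
Log2 fold change (cKO over CTRL) against the gene length used for FPKM (bases, log scale) for the tested nuclear (red circles) and mitochondrially encoded (blue squares) members. Black bars give the median of other tested protein-coding genes in each quintile of length, from 0.078 down to -0.088, and most red circles lie above the bar at their length while most blue squares lie below it.

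Genes around the respiratory chain were read from lists of related function. Of 45 tested assembly factors, which build the complexes without being part of them, 14 rose and none fell (31.1% against 19.9% of all genes), with a median log2 fold change of 0.11. With the length trend removed 9 of the 45 rose, 20% against 19.5% of all genes. *Tmem70*, needed for ATP synthase assembly, was among these (30.9 to 40.5 FPKM, log2 difference 0.38, limma adjusted p = 0.00255), as were the complex I factors *Ndufaf4* (12.2 to 16.1 FPKM, 0.38, adjusted p = 0.00109) and *Ndufaf6* (16.04 to 20.97 FPKM, 0.37, adjusted p = 0.0032). Of 22 genes for electron carriers and ubiquinone synthesis, 6 rose and 1 fell. The largest changes among these were in *Coq3* and *Coq7*, ubiquinone synthesis enzymes (log2 fold changes 0.33 and 0.28), in *Cyc1*, the cytochrome c1 of complex III (0.26), and in *Coq8a*, which fell (-0.33). Of 18 tricarboxylic acid cycle genes, 5 rose and 2 fell, led by *Idh3a* (0.29), *Mdh2* (0.28) and *Suclg1* (0.24) and by the lower *Pcx* (-0.37) and *Ogdh* (-0.20). The shares rising in these lists were 27.3% and 27.8%, and 31.8% and 33.3% with the length trend removed.

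Of 30 tested mitochondrial import and cristae genes, 20 were higher (66.7% against 19.9% of all genes) and none lower, with a median difference of 0.21 on the log2 scale, and with the length trend removed the count was again 20, with a median of 0.19. The largest rises were in the small carriers of the intermembrane space *Timm8a1* (0.42), *Timm10* (0.41) and *Timm9* (0.41). Of 13 tested genes for carriers, the ATP synthase inhibitor and uncoupling, 7 rose and 1 fell. *Slc25a20*, the carnitine and acylcarnitine carrier (8.01 to 11.7 FPKM, log2 difference 0.49, limma adjusted p = 3.0e-04), *Atpif1*, the inhibitor of ATP synthase (0.27), and *Slc25a3*, the phosphate carrier (0.22), rose, while *Slc25a1*, the citrate carrier, fell (-0.18). Of 28 genes for mitochondrial DNA maintenance and expression, 7 rose and none fell (25% rising, near the 19.9% of all genes, and 32.1% against 19.5% with the length trend removed). Those that rose included *Ssbp1*, the single-stranded DNA binding protein (10.8 to 13.9 FPKM, 0.34, adjusted p = 5.2e-04), *Rexo2* (0.29) and *Elac2* (0.23). *Tfam*, which packs mitochondrial DNA and helps start its transcription, rose as well (15.6 to 18.2 FPKM, 0.21, adjusted p = 0.00535). In the 3 lists where none fell, those of assembly factors, mitochondrial DNA expression, and import and cristae, 0 genes fell at an unadjusted p under 0.05 or with voom.

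Of 18 tested regulators of mitochondrial biogenesis, 1 rose and 6 fell (5.56% and 33.3%, against 19.9% and 20.6% of all genes), and the median was -0.093 on the log2 scale. *Nrf1* (5.00 and 4.94 FPKM, limma adjusted p = 0.837), *Esrra* (19.6 and 20.6 FPKM, adjusted p = 0.233), *Ppargc1b* (1.56 and 1.36 FPKM, adjusted p = 0.305), *Pprc1* (6.501 and 6.16 FPKM, adjusted p = 0.298) and *Myc* (110.2 and 110.5 FPKM, adjusted p = 0.92) did not pass, and *Ppargc1a* was too low to test. *Gabpa*, whose protein binds the ETS motif (8.52 to 7.74 FPKM, log2 difference -0.12, adjusted p = 0.0395), and *Hif1a* (7.19 to 6.30 FPKM, -0.17, adjusted p = 0.0415) fell, as did *Foxo3* (-0.30), *Sp1* (-0.28) and *Hcfc1* (-0.25), and *Prkaa1*, a catalytic subunit of AMP-activated kinase, rose (0.23). With the length trend removed 2 rose and 3 fell (16.7%, against 18.2% of all genes), *Gabpa* (adjusted p = 0.233) and *Hif1a* (adjusted p = 0.157) no longer passing.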

How the data were processed

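RNA of LSK cells from 3 *Myh9*-deficient and 3 control cell sets was sequenced. The submitters' processing notes name HISAT2 2.0.5 and mm10, and the counting program is not given in the sources used here. The authors deposited FPKM values and gene lengths, not counts. Multiplied by gene length, 100% of the values came out as whole reads (within 0.05), used for depth, shares at pseudogenes and voom. Reads carry no molecular identifiers.

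Members and lists were chosen with earlier results of these data known. The filter was a mean FPKM of at least 1, and tests used log2(FPKM + 1), which understates changes of low genes, with limma 3.58.1 (lmFit and eBayes with a trend, two-sided, R 4.3.3) and Benjamini-Hochberg adjustment over 11552 genes, tested on simulated data. Printed adjusted p come from this fit unless another setting is named. Trends with length or GC content were removed per library by loess. Pseudogene copies came from blastn 2.17.0 on GENCODE M21 transcripts (95% identity over 30% of a transcript and 100 bases).

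Named genes were *Myh9*, mitochondrially encoded members, the 2 largest rises and falls per complex, members called against the majority, isoform families, members below the filter and up to 3 genes per direction of other lists plus chosen regulators. *Atp5k*, *Ndufa1*, *Ndufa2*, *Ndufa4*, *Ndufb6* and *mt-Rnr1* with *mt-Rnr2* fall outside this rule. Alternatives were a pseudocount of 0.1, no filter or at least 5 FPKM, the median of ratios, quantile normalization, equal sums, no trend, removal of length or GC and length trends, voom, a replicate block, leaving out each library, the 2-fold rule and, chosen after seeing the data, adding reads of copies. Python 3.11.15, pandas 2.3.3 and numpy 2.4.6 were used.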

Additional observations from a re-analysis of the deposited data

How the results depend on the processing

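The median log2 fold change of the nuclear members was 0.10 or more under every alternative, while the number that rose depended on the correction for gene length. With the length trend removed the median was 0.10 and 34 members rose (34 of all, 10 fell); with GC and length trends removed the median was 0.10 and 9 of all members fell; with quantile normalization it was 0.14. The median of the mitochondrially encoded genes was -0.20 and -0.17 with these 2 removals. Complexes III, IV and V then had 3, 6 and 7 (length) or 4, 7 and 7 (GC and length) nuclear members higher. The cause was not tested. Under the 2-fold rule 1 member was higher and 0 lower.

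Few members fell, and their number varied. Over all members it was 1 with no filter on low values, 7 with quantile normalization, 1 with moderation without a trend and 1 with the replicate block, and for nuclear members it was 1, 2, 0 and 1 in turn. Of the mitochondrially encoded genes, 0 fell with no filter, 5 with quantile normalization, 4 with equal sums (TPM), 4 with equal sums over nuclear genes, 4 with voom on recovered reads, 1 without a trend, 8 and 7 with the length and the GC and length trends removed and 0 with the replicate block, and 0 rose with no filter, without a trend, with either trend removed and with the block. Leaving out 1 library at a time gave 0 to 4 members lower in all, 0 to 2 nuclear, 0 to 2 mitochondrially encoded lower, 0 to 1 mitochondrially encoded higher, 40 to 55 higher in all and 7 to 12 of complex IV higher (7 without control replicate 2). Of the 57 members that rose, 39 were called in all 6 of these fits, which have fewer samples.

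Same-numbered libraries did not deviate together (correlations -0.0046, -0.011 and -0.026). Whether they were collected as pairs is not stated, and correlations near 0 cannot settle it. With the replicate block, 52 members rose.

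Of the other lists, called genes numbered 9 of the assembly factors with no filter, without a trend and with either trend removed (7 to 15 without 1 library). For mitochondrial DNA expression they were 4 with no filter, 4 with equal sums over nuclear genes and 11 with voom (4 to 6 without 1 library), and for regulators of biogenesis 4 with no filter, quantile normalization, GC and length trends removed and the block (3 to 5 without 1 library).

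Of the 94 members, 15 changed sign with the length trend and 16 with the GC and length trends removed. Those not among the named genes include *Ndufa1*, which then passed as lower (-0.13 and -0.16), and *Ndufa2*, which had passed as higher (-0.068 and -0.096). Among named genes, the log2 fold change in these fits was -0.068 and -0.068 for *Cox8a*, -0.018 and -0.028 for *Ndufa9*, -0.069 and -0.063 for *Ndufb11*, 0.0046 and 0.033 for *Uqcrc1*, -0.065 and -0.037 for *mt-Nd3*, and -0.036 and -0.033 for *mt-Nd4l*. With quantile normalization it was -0.0054 for *Ndufa9*, -0.030 for *Ndufb11*, 0.022 for *mt-Co1* and 0.035 for *mt-Cytb*. Leaving out 1 library gave -0.068 to 0.045 for *Atp5s* and -0.11 to 0.039 for *mt-Atp6*. Precision differed between members: the standard errors of *mt-Atp8*, *Cox6a2* and *Cox7a1*, at low levels, were 0.268, 0.155 and 0.109, and those of *Atp5k* and *Ndufa12*, at higher levels, 0.191 and 0.345, beside a nuclear median difference of 0.18. The cause was not tested.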
